A study of Arabidopsis thaliana with 12 samples.

Results

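The genotype by phosphate interaction in Arabidopsis thaliana roots is the amount by which the response to missing inorganic phosphate (Pi) differed between the crr mutant and the wild-type accession Col-0. For every gene it was computed as the -Pi minus +Pi difference of crr less the same difference of Col-0, so that a positive value marks a gene that stood higher in crr, relative to Col-0, without Pi than with it. All 20017 genes of the normalized expression table had a value. Counts and rankings used the 17798 genes whose mean over the 4 groups was at least 1 log2 CPM, that is 2 CPM (read counts scaled to a common library size).

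The 4 groups were Col-0 +Pi, crr +Pi, Col-0 -Pi and crr -Pi, with 3 libraries each and 12 in all, every library being made from the pooled roots of many seedlings. Plants grew for 7 days on agar with 1 mM Pi (+Pi) or with none added (-Pi). The crr line carries a T-DNA insertion in CRR, in the Col-0 background, and a single allele was sequenced, so anything else that is particular to that line cannot be told apart from the loss of CRR. The values are the authors' group means of log2 CPM, without values of single libraries. No replicate error and no test stand behind any difference given here, and the spread of all genes at a like level is given in their place. In whole roots, fewer cells of a type and less RNA per cell cannot be told apart.

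Roots that lack Pi switch on a programme of Pi transporters, secreted phosphatases and membrane lipid exchange that is driven largely by the transcription factor PHR1. Low Pi also alters the handling of iron, which binds Pi in the medium and in the cell wall, and the redox state of iron at the root tip is known to set how far the primary root grows. Iron and copper are reduced before uptake by plasma membrane ferric reductases of the FRO family. CRR belongs to the CYBDOM family, in which a DOMON domain is joined to a transmembrane cytochrome b561 that can pass electrons across a membrane.

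CRR itself (AT3G25290, chromosome 3, 9208861 to 9210653, TAIR10) was at 5.99 log2 CPM in Col-0 +Pi and 5.64 in Col-0 -Pi, against -0.38 in crr +Pi and -0.11 in crr -Pi. The transcript was thus lower in both crr groups, by 6.37 log2 units with Pi and 5.75 without. Its interaction of 0.62 rests on levels under 1 CPM in crr. The 13 other kept genes within 50 kb of CRR had interactions between -0.69, for the vacuolar iron transporter gene VTL5, and 0.37.

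Across all kept genes the responses of the genotypes ran along the diagonal. The median interaction was -0.01, its interquartile range was 0.25, and the 5th and 95th percentiles were -0.41 and 0.41. Pearson's r between the Col-0 and crr responses was 0.88 across the 17798 genes, which are not independent of each other. An interaction of at least 1 log2 unit, that is 2-fold, was present in 98 genes (0.551% of those kept). Of these, 45 genes (0.253%) were on the higher side and 53 (0.298%) on the lower side, and 48.0% of all kept genes were above 0.

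**Figure D1:**
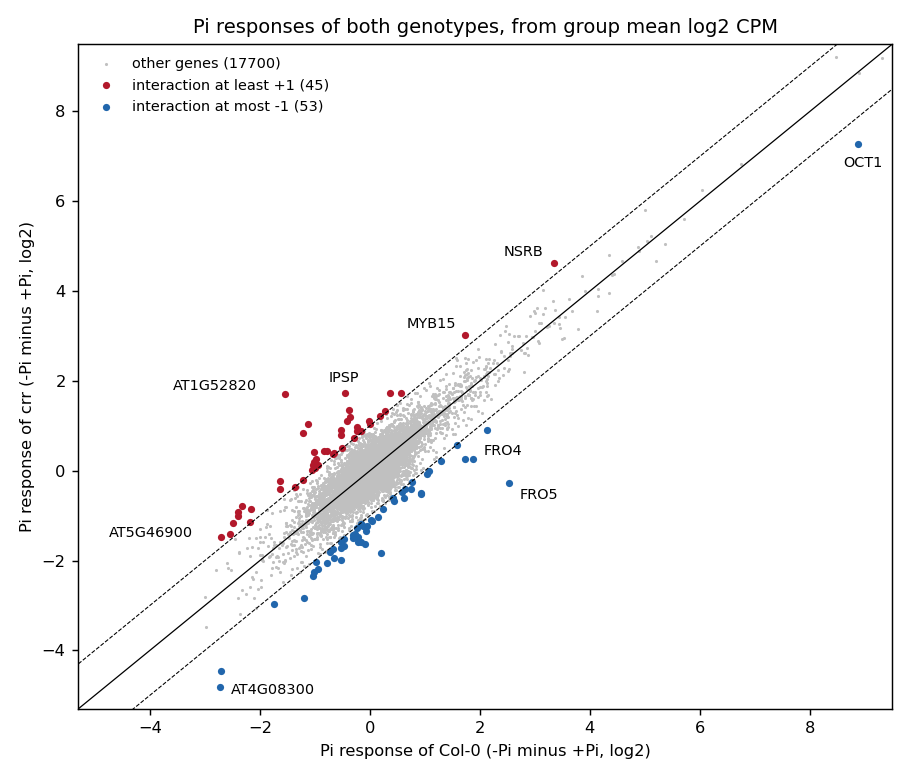
Pi response of Col-0 (x axis) against that of crr (y axis), both in log2 units, for the 17798 kept genes; the solid line marks equal responses and the dashed lines an interaction of 1 log2 unit. The 45 red and 53 blue genes lie outside the dashed lines, FRO5 and AT1G52820 farthest, while most strongly induced genes lie close to the diagonal.

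The genotypes stood farther apart without Pi than with it. At least 2-fold differences between crr and Col-0 were found in 8 genes under +Pi, CRR included, and in 56 genes under -Pi. Under +Pi, 3 genes were higher and 5 lower in crr, and under -Pi 19 were higher and 37 lower. The interquartile range of the genotype difference was 0.16 under +Pi and 0.20 under -Pi. A 2-fold Pi response was present in 769 genes of Col-0 and in 969 genes of crr.

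The lower and the higher genes had different shapes. Among the 53 lower genes, crr -Pi was the lowest of the 4 group means in 43, against 29.5% of all kept genes. In 28 of the 53 the Pi response passed 2-fold only in crr, in 8 only in Col-0, in 6 it had the same direction and was larger in crr, in 1 it was smaller in crr, and in 10 neither response passed. Among the 45 higher genes, Col-0 -Pi was the lowest of the 4 means in 30, against 19.2% of all kept genes. Here 14 responses passed 2-fold only in Col-0, 10 only in crr, 4 were in the same direction and smaller in crr, 2 in the same direction and larger, 2 in opposite directions, and 13 passed in neither genotype. The larger genotype gap was the one under -Pi in 48 of the 53 lower genes and 33 of the 45 higher genes. Since these genes were chosen by the interaction itself, the counts describe them and test nothing.

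The size of an interaction depended on the level of the gene. Its 5th and 95th percentiles were -0.73 and 0.76 for mean levels of 1 to 2 log2 CPM, -0.42 and 0.42 for 3 to 4, and -0.22 and 0.22 for 6 to 8. The share of genes past the 2-fold limit was accordingly 2.94% between 1 and 2 log2 CPM, 0.439% between 3 and 4, and 0 of 3070 genes between 6 and 8. Below 0 log2 CPM, among genes that were not kept, it was 30.6%. At mean levels of 4 log2 CPM and above, where the spread was narrow, 9 higher and 6 lower genes remained. The 6 lower ones were FRO4, COPT2, BGLU7, CYP71A19, AT3G16530 and RDL5. The 9 higher ones included IPSP, ELIP1, ELIP2, DIR14, UGT84A1, AT5G21940, AT5G46890 and AT5G46900.

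**Figure D2:**
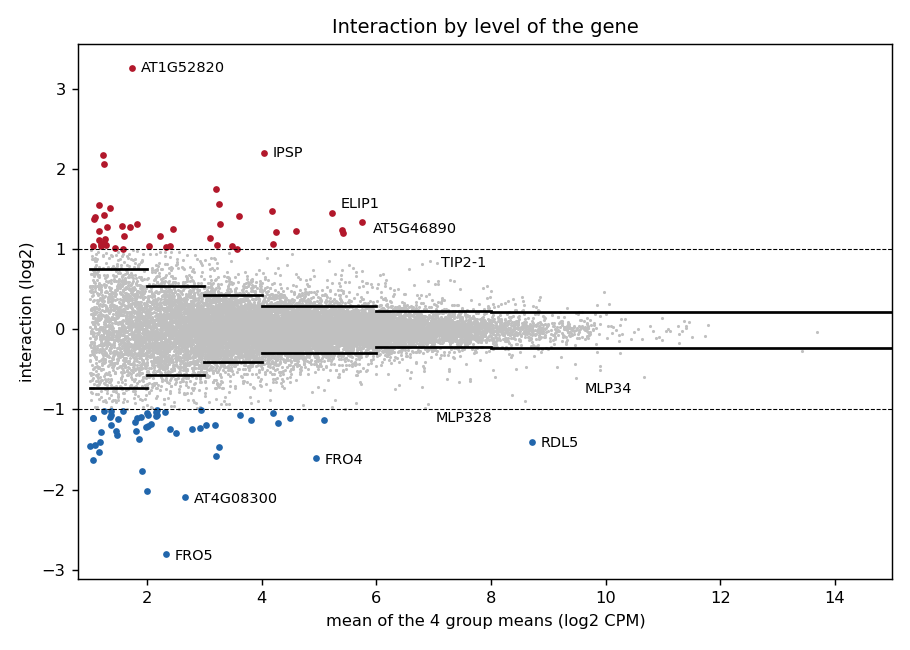
Interaction (y axis, log2) against the mean of the 4 group means (x axis, log2 CPM) for the 17798 kept genes, with horizontal bars at the 5th and 95th percentiles of each range of levels and dashed lines at 1 and -1. The bars narrow from -0.73 and 0.76 at the left to -0.24 and 0.22 at the right, and RDL5 and FRO4 lie far outside them.

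The largest negative interactions included both members of a tandem pair of ferric reductases. FRO5 (AT5G23990, chromosome 5, 8105461 to 8108642) was at 1.81 log2 CPM in Col-0 +Pi, 1.71 in crr +Pi, 4.34 in Col-0 -Pi and 1.44 in crr -Pi. It was high in Col-0 -Pi alone. Its Pi response was 2.53 in Col-0 and -0.28 in crr, an interaction of -2.81 and the lowest of all kept genes. FRO4 (AT5G23980, chromosome 5, 8097978 to 8101330), its neighbour, was at 4.26, 4.56, 6.13 and 4.81 log2 CPM in the same order, with an interaction of -1.61. Without Pi, FRO5 was 7.49-fold and FRO4 2.49-fold higher in Col-0 than in crr. Both reductases are best known for reducing copper at the root surface before its uptake.

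Only a part of the reads of FRO4 and FRO5 could match both genes. Of the 50-base stretches of the FRO4 transcript, 5.11% occurred in FRO5 as well, and 5.30% the other way round. The longest run that both genes hold within 1 coding exon, shown because reads inside it cannot be placed, is 92 bases long and lies at chr5:8098708-8098799 in FRO4 and chr5:8106110-8106201 in FRO5, on the minus strand of TAIR10.1:
FRO4 and FRO5 shared run: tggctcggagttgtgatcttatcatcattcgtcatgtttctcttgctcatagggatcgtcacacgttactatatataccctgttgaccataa

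Of the FRO family, 5 genes were in the table and 4 were kept. FRO2, the main ferric reductase of the root epidermis, was at 7.34 log2 CPM in Col-0 +Pi, 7.23 in crr +Pi, 5.56 in Col-0 -Pi and 5.07 in crr -Pi. Its interaction of -0.38 was below the 5th percentile of -0.22 for mean levels of 6 to 8 log2 CPM. FRO3, which acts in the vasculature, had an interaction of 0.15. FRO8 was below the level limit. The median of the 4 was -0.997, carried by FRO4 and FRO5, and it was -0.38 at a level limit of 3 log2 CPM, which leaves FRO5 out.

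Copper genes other than FRO4 and FRO5 differed little, apart from the transporter gene COPT2. COPT2 (AT3G46900) takes up reduced copper at the root surface, and it was at 4.15 log2 CPM in Col-0 +Pi, 4.14 in crr +Pi, 4.78 in Col-0 -Pi and 3.72 in crr -Pi, an interaction of -1.05. Like FRO4 and FRO5, it was highest in Col-0 -Pi. Of the 13 kept copper genes it was the only gene past the limit, and the median of the list was -0.05. SPL7, the transcription factor of the copper deficiency response, had an interaction of -0.01, and CITF1, a copper-regulated transcription factor, was at 2.52 log2 CPM in Col-0 -Pi and 2.47 in crr -Pi, an interaction of -0.12. The superoxide dismutase genes CSD1 (copper/zinc, 0.40) and FSD1 (iron, -0.33) had interactions of opposite sign.

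SPL7 binds DNA at the letters GTAC. The 1500 bases before the start of FRO5 held 11 copies of GTAC, against a median of 3 in kept genes, of which 0.208% held as many or more, while FRO4 and COPT2 held 1 each. The motif is its own reverse complement, so each site was counted once. The 100 bases from 1500 to 1401 before FRO5 (chr5:8110043-8110142, minus strand, TAIR10.1) held 5 of them and are shown with GTAC in capitals:
FRO5 upstream: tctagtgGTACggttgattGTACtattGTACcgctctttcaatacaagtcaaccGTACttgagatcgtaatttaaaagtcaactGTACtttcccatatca
In the shorter window of 250 bases just before the start, GTAC occurred in 35.8% of the lower genes, 33.3% of the higher genes and 34.3% of all kept genes. FRO5 was singled out with its interaction, the lowest of all kept genes, already known. Its count of GTAC therefore describes 1 gene and tests nothing. Binding of SPL7 was not tested.

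Most other genes at the low end were expressed at a low level, and most, though not CWINV5, were lowest in crr -Pi. AT4G08300 and its neighbour AT4G08290 (chromosome 4, 5238773 to 5248394 together) encode WAT1-related proteins, a family of membrane transporters. AT4G08300 was at 4.39 log2 CPM in Col-0 +Pi, 4.69 in crr +Pi, 1.68 in Col-0 -Pi and -0.13 in crr -Pi, and AT4G08290 was at 3.48, 3.91, 0.78 and -0.56. Both were lower without Pi in each genotype, and more so in crr, with interactions of -2.10 and -1.76. GRP3S, a short glycine-rich protein, was between 2.399 and 2.59 log2 CPM in 3 groups and at 0.60 in crr -Pi (interaction -2.02). STR15, also named SEN1 and known as a marker of senescence and dark treatment, stood between 1.54 and 1.65 in 3 groups and at -0.09 in crr -Pi (-1.54). CWINV5, annotated as a cell wall invertase, resembled FRO5, with 4.53 in Col-0 -Pi and 2.72 to 2.98 in the other groups (-1.48); 12.5% of the 50-base stretches of its transcript lie in the neighbouring gene NAP1;4. AT3G46880, an uncharacterized gene next to COPT2, was at 1.99, 2.15, 0.79 and -0.68 log2 CPM in Col-0 +Pi, crr +Pi, Col-0 -Pi and crr -Pi (-1.63).

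RDL5 (AT4G11320, chromosome 4, 6887166 to 6889879), which encodes a probable cysteine protease, was the most abundant gene past the limit. It was at 9.15 log2 CPM in Col-0 +Pi, 9.14 in crr +Pi and 8.98 in Col-0 -Pi but at 7.57 in crr -Pi. The interaction was -1.41, while the 5th and 95th percentiles of genes above 8 log2 CPM were -0.24 and 0.22.

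**Figure D3:**
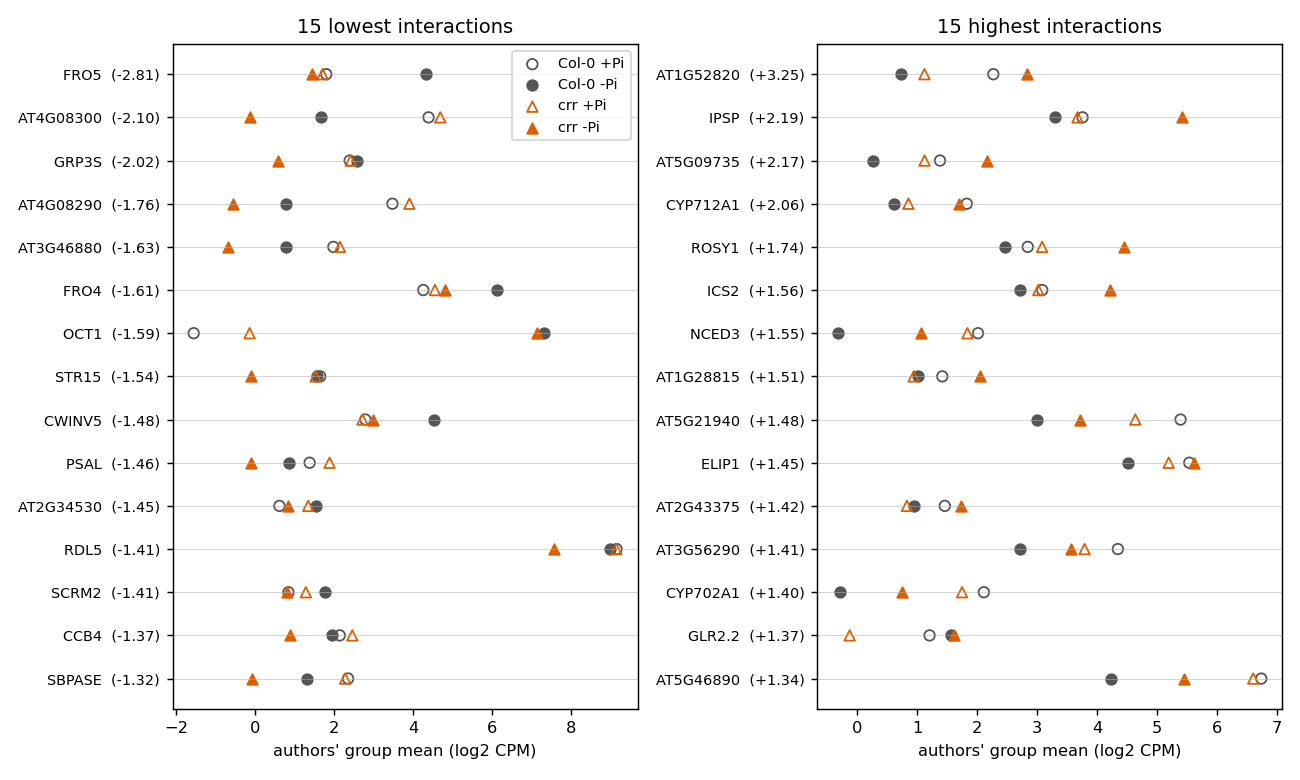
The authors' group means (x axis, log2 CPM) of the 15 genes with the lowest interactions (left) and the 15 with the highest (right), open symbols for +Pi and filled ones for -Pi, circles for Col-0 and triangles for crr, with the interaction after each name. In most genes on the left the filled triangle is the lowest symbol, as for RDL5 at 7.57, and in FRO5, FRO4 and CWINV5 the filled circle stands alone to the right.

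OCT1 (AT1G73220), an organic cation/carnitine transporter gene, had a large interaction with another shape. It was at -1.55 log2 CPM in Col-0 +Pi and -0.13 in crr +Pi, but at 7.32 and 7.15 in Col-0 -Pi and crr -Pi. Nearly all of its interaction of -1.59 lay in the +Pi groups, where its level was under 1 CPM, and with 1 CPM added before the log the interaction was -0.68.

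Most genes of the photosynthetic apparatus, which roots transcribe at a low level, had interactions below 0. Of 42 genes for photosystems, antenna and electron transport in the table, 30 were kept. Of these, 28 had an interaction below 0 and 6.67% were above it, against 48.0% above 0 of all kept genes. The median was -0.42. The limit was passed by 2 of the 30, PSAL and PETC, against 0.551% of all kept genes and 2.94% of those between 1 and 2 log2 CPM. The median genotype difference of the 30 was 0.11 under +Pi and -0.32 under -Pi. PSAL, a subunit of photosystem I, was at 1.39 log2 CPM in Col-0 +Pi, 1.89 in crr +Pi, 0.86 in Col-0 -Pi and -0.10 in crr -Pi (interaction -1.46). Its mean level of 1.01 log2 CPM was just past the level limit. PETC, the Rieske iron-sulfur protein of the cytochrome b6f complex, was at 3.45, 3.74, 2.44 and 1.49 (-1.24), and PSBQ1, of the oxygen-evolving complex, at 2.61, 2.83, 1.81 and 1.05 (-0.98). These 3 genes were lower without Pi in both genotypes, and farther below in crr. Without Pi, 5 of the 30 were higher in crr than in Col-0. PSBS, which acts in photoprotection, was at 4.24, 4.16, 2.92 and 3.17 log2 CPM (0.32), and LHCB3, LHCB4.2, LHCB6 and PNSL5 were higher by smaller amounts.

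Carbon fixation and chlorophyll synthesis stood on the same side. All 9 kept Calvin cycle genes had interactions below 0, with a median of -0.26. SBPASE, sedoheptulose-1,7-bisphosphatase, was at 2.36 log2 CPM in Col-0 +Pi, 2.28 in crr +Pi, 1.33 in Col-0 -Pi and -0.07 in crr -Pi (-1.32). RBCS1A, a small subunit of Rubisco, was at 3.58, 3.92, 3.05 and 2.19 (-1.20), and GAPA1, a chloroplast glyceraldehyde-3-phosphate dehydrogenase, had an interaction of -0.90. Of the 9 kept chlorophyll synthesis genes 7 were below 0, with a median of -0.12. PORB, a protochlorophyllide reductase, was at 2.60, 2.47, 2.36 and 1.20 (-1.04), whereas CAO (AT1G44446), which makes chlorophyll b, had an interaction of 0.44. CCB4, which assembles heme in the cytochrome b6f complex, was also low, at 0.88 log2 CPM in crr -Pi against 1.94 to 2.47 elsewhere (-1.37), but 29.8% of the 50-base stretches of its transcript are shared with an overlapping gene on the other strand.

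These lists serve as markers of green tissue as well. The summed level of the 42 photosystem genes was 457 CPM in Col-0 +Pi, 480 in crr +Pi, 293 in Col-0 -Pi and 259 in crr -Pi. The Calvin cycle genes summed to 991, 991, 845 and 796 CPM in the same order. No photosystem gene was at the lowest value of the table in any group. Whether the share of green tissue differed between the root samples was not tested. The set of 827 kept genes whose description names the chloroplast or the thylakoid, chosen after the values were seen, had a median interaction of -0.06 and 37.0% above 0.

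Thiamine synthesis offered a pair of members, also chosen after their values were seen. THIC, which makes the pyrimidine part of thiamine with an iron-sulfur cluster, was at 4.27 log2 CPM in Col-0 +Pi, 4.49 in crr +Pi, 3.29 in Col-0 -Pi and 2.45 in crr -Pi (-1.07). THI1, the thiazole synthase, was between 5.39 and 5.55 in 3 groups and at 4.49 in crr -Pi (-0.97). TH1, which acts in a later step, was nearer to 0 (-0.06).

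Further groups on the low side were galactinol synthases and major latex protein-like genes. Galactinol is the donor for raffinose sugars, which gather under stress. GOLS4 was at 3.06 log2 CPM in Col-0 +Pi, 3.239 in crr +Pi, 2.41 in Col-0 -Pi and 1.29 in crr -Pi (-1.30), GOLS1 had an interaction of -0.73 and GOLS2 of -0.82. Of 6 kept genes of galactinol and raffinose synthesis, 1 was above 0 and the median was -0.42. The median Pi response of this list was the same in both genotypes, at -0.50 in Col-0 and -0.50 in crr. Its median genotype difference was 0.11 under +Pi and -0.13 under -Pi. All 9 kept major latex protein-like genes were below 0, with a median of -0.35 and none past the limit. MLP328 was at 8.19, 8.05, 6.12 and 4.999 (-0.98), MLP43 was at 5.57, 5.26, 4.67 and 3.41 (-0.95), and MLP34, among the most abundant transcripts, at 10.07, 9.97, 9.29 and 8.57 log2 CPM (-0.62). The median genotype difference of the 9 major latex protein-like genes was -0.15 under +Pi and -0.49 under -Pi.

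Aliphatic glucosinolate genes lay close together just below 0. Of 11 kept genes 10 were negative, between -0.28 and -0.02, with a median of -0.17. Their median Pi response was 0.65 in Col-0 and 0.48 in crr. MAM1, which elongates methionine side chains, had responses of 1.32 in Col-0 and 1.04 in crr.

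The highest interactions were led by genes that were lowest in Col-0 -Pi and highest in crr -Pi. AT1G52820 (chromosome 1, 19669005 to 19670427), a 2-oxoglutarate and iron-dependent oxygenase gene, was at 2.27 log2 CPM in Col-0 +Pi, 1.12 in crr +Pi, 0.73 in Col-0 -Pi and 2.84 in crr -Pi. Its response was -1.54 in Col-0 and 1.71 in crr, an interaction of 3.25. The lncRNA gene AT5G09735 was the only other gene with 2-fold responses in opposite directions, at 1.38, 1.12, 0.26 and 2.17 log2 CPM (2.17). CYP712A1, a cytochrome P450 gene, was at 1.83, 0.86, 0.61 and 1.69 (2.06), lowest in Col-0 -Pi too but highest in Col-0 +Pi. However, 88.4% of the 50-base stretches of its transcript are shared with a gene on the opposite strand, AT2G42247. Whether the counting used strand is not given in the sources used here.

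IPSP (AT5G04120, chromosome 5, 1119937 to 1121813), annotated as a metal-independent phosphoserine phosphatase, had the second highest interaction and the highest relative to genes of its level. It was at 3.76 log2 CPM in Col-0 +Pi, 3.67 in crr +Pi, 3.30 in Col-0 -Pi and 5.41 in crr -Pi (2.19), so that crr -Pi alone was high. ROSY1, a lipid-binding protein linked to root gravitropism, was at 2.84, 3.08, 2.46 and 4.44 (1.74), and ICS2, an isochorismate synthase of the salicylic acid pathway, at 3.09, 3.02, 2.72 and 4.21 (1.56), with the same shape. Without Pi these genes were 4.32-fold, 3.95-fold and 2.81-fold higher in crr than in Col-0.

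In other high genes the level was lower without Pi in Col-0, and less so or not at all in crr. NCED3, the key enzyme of abscisic acid synthesis, was at 2.02 log2 CPM in Col-0 +Pi, 1.84 in crr +Pi, -0.31 in Col-0 -Pi and 1.06 in crr -Pi (1.55). The neighbouring lipid-transfer protein genes AT5G46890 and AT5G46900 had responses of -2.50 and -2.71 in Col-0 and of -1.16 and -1.48 in crr, with interactions of 1.34 and 1.24. Their transcripts share 26.8% and 22.5% of 50-base stretches with each other, and reads inside these stretches cannot be placed. AGP13, a cell wall arabinogalactan peptide, was at 4.11, 3.92, 1.96 and 3.08 (1.31), and UGT84A1, a glycosyltransferase of phenylpropanoid acids, at 5.30, 4.92, 3.67 and 4.51 (1.22). DIR14, a dirigent protein gene, was at 5.63, 5.60, 4.62 and 5.78 log2 CPM (1.20), low in Col-0 -Pi alone.

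The early light-induced proteins ELIP1 and ELIP2, which bind pigment under light and cold stress, had that shape too. ELIP1 (AT3G22840, chromosome 3, 8084405 to 8085669) was at 5.54 log2 CPM in Col-0 +Pi, 5.19 in crr +Pi, 4.52 in Col-0 -Pi and 5.62 in crr -Pi (1.45), and ELIP2 (AT4G14690) at 4.40, 4.25, 3.63 and 4.70 (1.21). They are thylakoid proteins, yet their interactions had the opposite sign to those of the photosystem list. Of the 10 kept cold and light stress genes, 9 were above 0 with a median of 0.14, and no other member passed the limit. The G-box CACGTG, a site for light- and stress-related bZIP and bHLH factors, occurred within 250 bases before the start in 15.6% of the higher genes (7 of 45), 9.43% of the lower genes and 7.28% of all kept genes. The 7 genes were ELIP1, IPSP, ROSY1, PRP2, SCPL16, RTFL17 and AT1G79720. The last 100 bases before ELIP1 (chr3:8085670-8085769, minus strand, TAIR10.1) are shown with the G-box, which is its own reverse complement, in capitals:
ELIP1 upstream: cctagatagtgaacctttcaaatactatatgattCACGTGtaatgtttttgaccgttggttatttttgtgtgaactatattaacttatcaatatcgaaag

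Most endodermal genes had interactions above 0, without any member past the limit. Of 19 kept genes for endodermis and suberin, 15 (78.9%) were above 0, against 48.0% of all kept genes, and the median was 0.22. Large shares above 0 were not particular to this list. They were 75% for the circadian clock, 71.8% for arabinogalactan proteins and 70.7% for cytosolic ribosomal proteins, with medians of 0.15, 0.15 and 0.04. The higher values were those of Casparian strip genes, a ring of lignin that seals the endodermis. CASP4 was at 4.09 log2 CPM in Col-0 +Pi, 3.98 in crr +Pi, 3.47 in Col-0 -Pi and 4.04 in crr -Pi (0.68), CASP2 at 5.34, 5.21, 5.40 and 5.85 (0.59) and ESB1, which is needed for an unbroken strip, at 6.88, 6.76, 6.74 and 7.23 (0.60). CASP1 (0.55), PER64 (0.49) and MYB36 (0.49), the transcription factor that switches these genes on, were named after their values were seen. These 6 genes were lower in crr than in Col-0 under +Pi and higher under -Pi. The suberin genes lay nearer to 0, with GPAT5 at 0.08, CYP86A1 at -0.03 and FAR1 (AT5G22500) at -0.22.

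The triterpene and flavonoid lists lay on the same side. All 7 genes of the thalianol and marneral clusters, which make triterpenes in roots, were above 0, with a median of 0.38; the largest were CYP705A12 (0.66) and MRN1, the marneral synthase (0.60). Their median response was -0.74 in Col-0 and -0.37 in crr. All 6 kept flavonoid genes were above 0 as well, with a median of 0.23. MYB12, an activator of flavonol genes, was between 4.38 and 4.45 log2 CPM in 3 groups and at 5.14 in crr -Pi (0.68). Root hair genes had a median response of 1.35 in Col-0 and 1.54 in crr. Their interactions ran from -0.44 to 0.45, with 6 of 10 above 0, near the 48.0% of all kept genes.

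**Figure D4:**
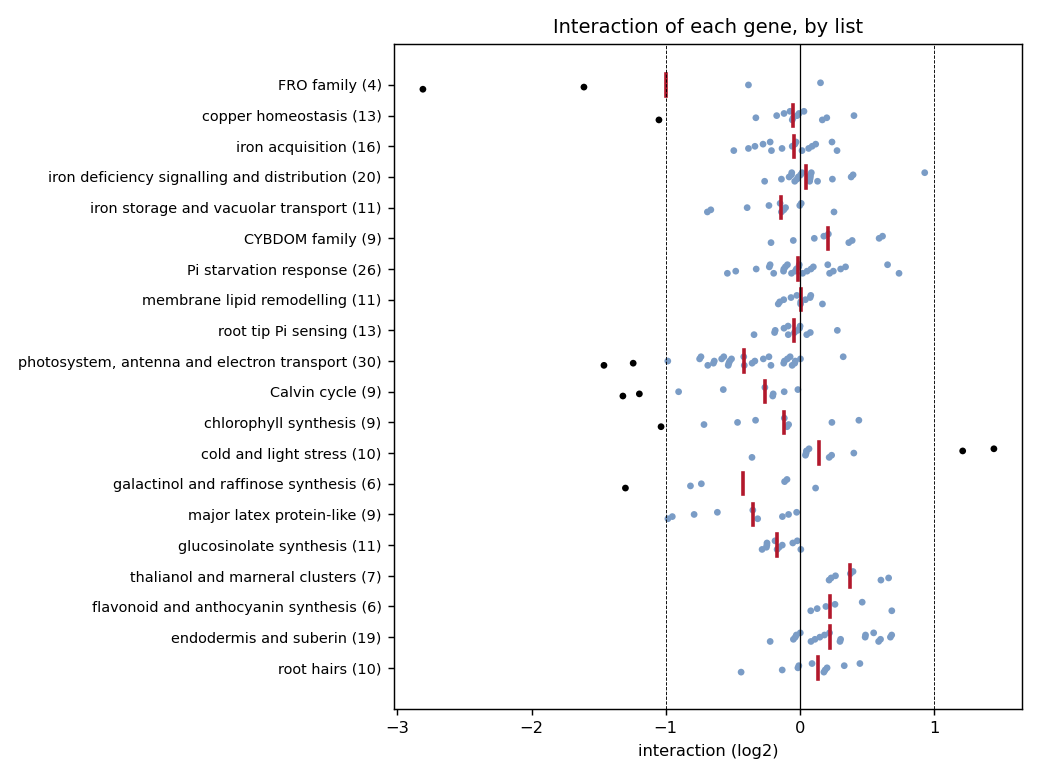
Interaction (x axis, log2) of each kept gene in 20 lists, with the number of kept genes after each name, red bars at the list median and black points for genes past 1 log2 unit (dashed lines). The FRO, photosystem and major latex protein-like lists lie to the left, with medians of -0.997 (-0.38 at a level limit of 3 log2 CPM), -0.42 and -0.35, and the thalianol and endodermis lists to the right, at 0.38 and 0.22.

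The group means of the core Pi starvation genes differed little between the genotypes. Of 30 measured Pi starvation genes, 26 were kept, none of them past the limit, with a median interaction of -0.02 and median responses of 1.93 in Col-0 and 1.96 in crr. SPX1, a Pi sensor, was at 3.37 log2 CPM in Col-0 +Pi, 3.43 in crr +Pi, 9.08 in Col-0 -Pi and 9.03 in crr -Pi, and the phosphatase gene PAP17 was at 2.73, 2.71, 7.62 and 7.59. The largest interactions in the list were 0.74 for SPX3, which was at -1.81 log2 CPM in Col-0 +Pi and -2.67 in crr +Pi, 0.65 for PPCK2 and -0.54 for the noncoding RNA AT4. The 11 kept genes of membrane lipid remodelling ranged from -0.16 to 0.17 around a median of 0.00. Genes of Pi sensing at the root tip ranged from -0.34 for CLV2 to 0.28 for the ferroxidase gene LPR1, with STOP1 at -0.04 and ALMT1, the malate channel, at -0.19.

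The medians of the iron lists were also close to 0, with single genes farther off. The 16 kept genes of iron acquisition had a median of -0.05, and none passed the limit. IRT1, the main iron transporter of roots, was at 7.80 log2 CPM in Col-0 +Pi, 7.71 in crr +Pi, 5.48 in Col-0 -Pi and 5.06 in crr -Pi. Its interaction of -0.34 was below the 5th percentile of -0.22 for mean levels of 6 to 8 log2 CPM. CYP82C4, which modifies secreted coumarins, had the largest value of the list (-0.49), and FIT, the factor that governs this set, had 0.28. Among 20 kept genes of iron deficiency signalling the median was 0.04 and the largest value 0.93, for BHLH100, whose level in Col-0 -Pi was close to 1 CPM. Of 11 iron storage genes 9 were below 0, with a median of -0.14. The vacuolar transporter genes VTL5 (-0.69) and VTL2 (-0.66) were the lowest. VTL5 lies within 50 kb of CRR, and an effect of the insertion on genes near it was not tested. The ferritin gene FER1, at 7.66 to 7.83 log2 CPM in the 4 groups, had an interaction of 0.00. bHLH11, a repressor of iron uptake genes, lay outside these lists and past the limit (-1.03), and 11.6% of the 50-base stretches of its transcript occur in another gene. The other CYBDOM genes ranged from -0.22 for HYP1 (AT5G35735) to 0.59 for AT5G47530, and CRR;H1 was at 0.18.

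**Figure D5:**
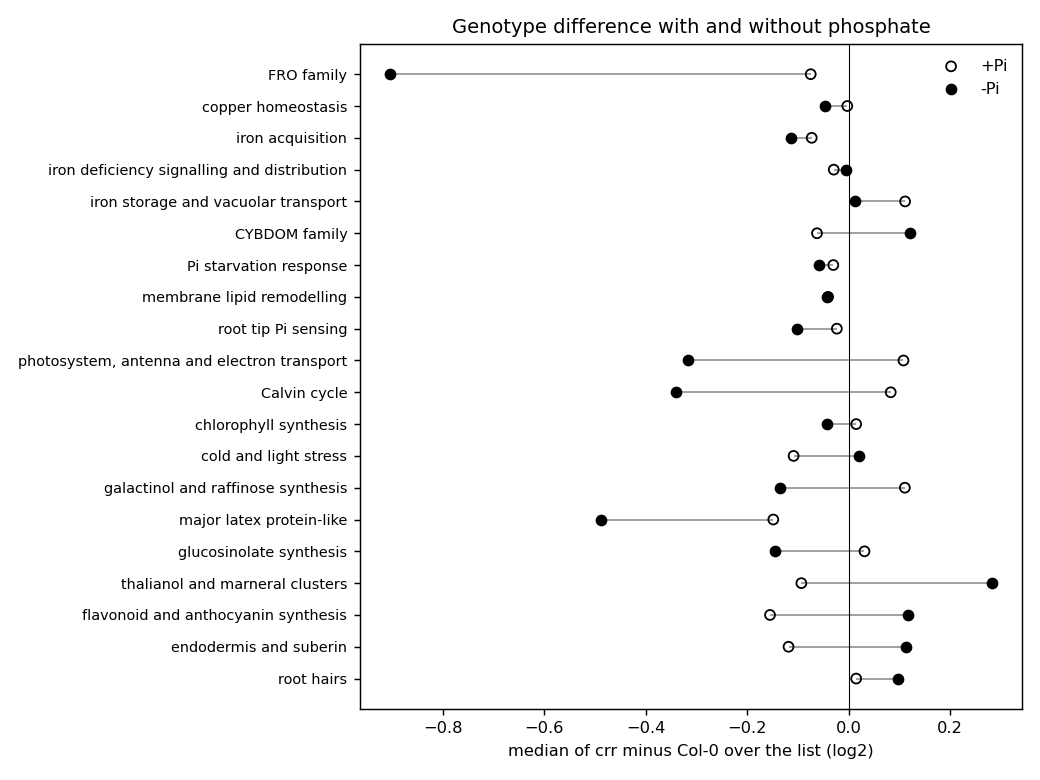
Median over the kept genes of each list of the crr minus Col-0 difference (x axis, log2), open circles with Pi and filled circles without. The FRO family, 4 genes of which FRO4 and FRO5 carry the shift, moves from -0.07 with Pi to -0.90 without and the Calvin cycle from 0.08 to -0.34, while membrane lipid remodelling shows -0.04 in both.

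Over genes chosen by the mean of both Pi responses, the crr response was slightly larger. The crr responses were also wider over all kept genes, with an interquartile range of 0.36 against 0.30 in Col-0, so that this choice can lean towards genes with a larger crr response. Of 487 genes with a mean response of at least 1, the response was larger in crr in 305 (62.6%), with medians of 1.51 in Col-0 and 1.61 in crr. Of 317 genes with a mean response of -1 or less, it was larger in size in crr in 206 (65.0%), with medians of -1.24 and -1.42. The median interactions were 0.08 and -0.22. The latter depended on the choice and turned to 0.12 when the genes were chosen by the Col-0 response alone, while the former was then 0.02. Among the former 4 genes were past the limit on the higher side and 5 on the lower, and among the latter 9 and 16.

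Abundant genes with moderate interactions stood out when each value was divided by the interquartile range of the 500 genes nearest in level, a ranking chosen after the data were seen. By this measure 4 of the 15 lowest and 6 of the 15 highest genes were the same as by size. The lowest was RDL5, at -11.2 interquartile ranges, followed by FRO4 (-7.35), MLP328 (-7.06) and PER23 (-6.89). PER23 and PER71 encode secreted peroxidases, and their levels in crr -Pi were 7.74 and 7.49 log2 CPM, against 8.59 and 8.17 in Col-0 -Pi and 8.82 to 9.02 in the +Pi groups. In the list of secreted peroxidases, which includes PER23, 21 of 37 kept genes were above 0. The median interaction of that list was 0.04 and no member passed the limit. CYP79B3, which starts indole glucosinolate synthesis, was at 7.27 log2 CPM in Col-0 +Pi, 7.33 in crr +Pi, 6.60 in Col-0 -Pi and 5.95 in crr -Pi (-0.72). The highest was IPSP (8.25), followed by AT5G46890 (7.52), ELIP1 (7.44) and TIP2-1 (6.19). TIP2-1, a vacuolar aquaporin, was between 6.72 and 6.80 in 3 groups and at 7.50 in crr -Pi. UGT84A2, which conjugates sinapic acid, was between 6.50 and 6.76 in 3 groups and at 7.23 in crr -Pi. GASA1, a gibberellin-regulated peptide, was at 7.61, 7.43, 6.25 and 6.90 log2 CPM in Col-0 +Pi, crr +Pi, Col-0 -Pi and crr -Pi.

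Some of the 98 genes lay next to each other, and the number of pairs among randomly drawn genes was not computed. When the kept genes were ordered along the chromosomes, 6 neighbouring pairs were both past the limit, and 5 of these had the same direction. Those were FRO4 with FRO5, AT4G08290 with AT4G08300, AT3G46880 with COPT2, AT5G46890 with AT5G46900, and CEP5 with AT5G09735. In 58 of the 98 genes no 50-base stretch of the transcript occurred in another gene, and in 18 more than 10% did.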

How the data were processed

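RNA of whole roots was sequenced in 12 libraries, 3 for each of 4 groups. According to the submitters' processing notes and the study's methods, reads were trimmed with cutadapt 1.8, freed of ribosomal and low-complexity sequences, aligned to TAIR10 with STAR 2.5.3a and counted per gene with HTSeq 0.9.1. The authors required 1 CPM in some library, scaled counts with edgeR 3.24.3 (TMM) and fitted all libraries in limma. RSEM 1.2.31 and R 3.5.3 are also listed. The sources used here state neither the prior count nor the strand setting. The study's methods give a minimum number of reads per library. No counting error was computed, since only group means entered. The labels and the methods name different RNA kits.

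The values used were the deposited group means, which the authors made as log2 CPM. Each is printed as the authors' mean, with no SD and no n. The antilogs of a group summed to between 996280 and 999880 CPM. The lowest value of the table, -5.09, was reached in a group by 30 genes, none of them kept. The 5 comparison tables hold the authors' fold changes, p-values and adjusted p-values and were not used.

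The interaction, its limits (1 log2 unit, mean level 1 log2 CPM) and the list medians were computed with Python 3.11.15, numpy 2.4.6 and pandas 2.3.3, and the code was tested on simulated data. Genes named are the 15 highest and 15 lowest interactions, CRR and up to 4 members of a list with the largest values in size. All other genes named were chosen after their values were seen. The lists and limits were chosen with earlier results of these data known. The photosystem list was taken by gene name, without phosphoserine aminotransferase and acyltransferase genes whose names begin alike. Positions came from the files, or for 127 genes with a displaced field from RefSeq. The positions of 19868 of 19871 genes were the same in RefSeq TAIR10.1, from which sequences were read. Alternative limits, scalings and an added count were tried. Some results are not reported here.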

Additional observations from a re-analysis of the deposited data

Results flagged for a closer look

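In a pair of genes the Pi responses of the genotypes were at least 2-fold and ran in opposite directions. AT1G52820 had an interaction of 3.25 and AT5G09735 of 2.17. Only group means were used, so the difference between the genotypes was not tested. Both genes had mean levels under 2 log2 CPM (1.74 and 1.23), where interactions spread widely.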

How the results depend on the processing

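The counts depended on the limits. With a level limit of 0 log2 CPM, 115 genes were higher and 126 lower, with a limit of 3 they were 17 and 12, and with no level limit 292 and 297. A 1.5-fold limit gave 343 and 366, and a 4-fold limit 4 and 3. With 1 CPM added before the log, 19 and 17 genes passed, all 36 of them among the 98. Re-centred columns gave the same 98 genes, and quantile normalization gave 97, of which 96 were shared. Under these scalings and in CPM the 30 genes with the extreme interactions and CRR kept their sign, and with 1 CPM added 9 of them moved by over 1.5 times, among them AT4G08290 to -1.09, AT3G46880 to -0.88, SBPASE to -0.78 and NCED3 to 0.91. For Pi-responsive genes with negative responses the median interaction was -0.44 at a mean response of at least 4-fold, 0.12 when they were chosen by the Col-0 response and -0.37 when chosen by the crr response. For positive responses it was 0.18 when chosen by the crr response. By construction, genes chosen by 1 genotype carry its own error into the interaction. The list medians of the FRO family, chlorophyll synthesis, photosystem and major latex protein-like genes were -0.38, -0.22, -0.29 and -0.48 at a level limit of 3, and that of the Calvin cycle was -0.43 at a limit of 0. No paired analysis was possible because the values are group means that carry no replicate numbers, and leaving out a replicate was not possible for the same reason.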
